A study of Homo sapiens and Mus musculus with 8 samples.

Results

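Cells of NCI-H146 (H146), an established human small cell lung cancer line, were exposed to decitabine or to vehicle, and their RNA was sequenced at 96 h. This comparison uses 4 of the 8 libraries of the series, chosen by line: 2 from cells given 0.5 µM decitabine for 96 h and 2 from cells given vehicle. The other 4 libraries come from a mouse line and were not used here. Every value describes 1 line, grown in RPMI medium with serum, and the agents and times are those of the labels. Whether the duplicate libraries are separate cultures is not said in the labels, so the p-values measure the spread between these libraries, which may be technical. Of the 20863 genes in the table, 20783 were tested, those whose normalized count reached 10 in 2 or more of the 4 libraries. The study asks whether small cell lung cancer cells that lose the methyltransferase DNMT1 leave the cell cycle by maturing, without the p53 route. The account here covers gene groups outside the germline, p53 and MYC programs.

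Methyl groups on cytosines of CpG pairs are copied to the new DNA strand at each cell division by DNMT1, and genes whose CpG-rich starts are methylated are mostly silent. Decitabine is taken into replicating DNA in place of deoxycytidine, binds DNMT1 there and removes it, so that methylation is diluted as cells divide. Families known to be held in part by methylation include the clustered protocadherins, HOX genes, and genes restricted to other tissues such as gut, skin or muscle.

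The libraries carried the neuroendocrine label's markers. INSM1, a zinc finger factor of neuroendocrine cells, had 56766 and 52353 in decitabine, against 49146 and 53308 in vehicle. The synaptic vesicle gene SYP had 22067 and 20057 in decitabine, against 20643 and 18750.2 in vehicle, and the ranges of the arms overlap for both genes. SNAP25, a protein of vesicle fusion, had 17178 and 16891 in decitabine, against 10932 and 11356 in vehicle (log2 fold change 0.61 ± 0.10 SE, limma adjusted p 5.37e-05). Of 20 neuroendocrine and neuronal identity genes 5 were higher and 3 lower in decitabine (3 higher without decitabine replicate 2, 1 lower without decitabine replicate 2, 1 lower without a variance trend), and their summed level was 446850.0 and 429182 in decitabine against 438517 and 431582 in vehicle. DNMT1 mRNA itself had 14049.9 and 14155 in decitabine, against 15398 and 15624 in vehicle and was not called (limma adjusted p 0.35), with both decitabine values below both vehicle values.

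Across all genes, 3198 were higher and 2554 lower in decitabine at a limma adjusted p under 0.05, which is 15.4% and 12.3% of the genes tested (27.7% in either direction). The large changes ran mostly upward: 1388 genes (6.68%) were higher by 2-fold or more on the log2 scale and 303 (1.46%) were lower by as much. Among genes with a mean of 100 to 1000 normalized counts over the 4 libraries 390 were higher and 82 lower by 2-fold or more. At 1000 to 10000 falls outnumbered rises among all calls, 17.7% lower against 13.2% higher. Part of the excess of rises at low levels follows from the filter: 526 genes were under 10 in both vehicle libraries and were tested only because both decitabine libraries reached 10, and 441 of them were called higher. The arms did not overlap for 62.1% of the genes tested. The median log2 fold change of all genes was −0.01, so a value near 0 is that of the typical gene. Only 1581 genes were higher and 583 lower without a variance trend, and without decitabine replicate 1 or 2 the counts were 1534 and 987 or 1670 and 994. The libraries held 66740982 and 66454903 reads in genes in decitabine and 67108249 and 62462654 in vehicle, and log2 values correlated at 0.994 between the decitabine libraries, 0.992 between the vehicle libraries and 0.964 to 0.969 between arms. Gene lists with 3 or more calls in a direction carry checks of the count. A library whose removal moves it by more than 1.5 times is named, mostly with the new count. The count without a variance trend is given where that moves it by 3 times or more. Counts of 1 or 2 called genes are given alone. In bulk RNA, fewer cells of a type and less RNA per cell cannot be told apart.

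**Figure D1:**
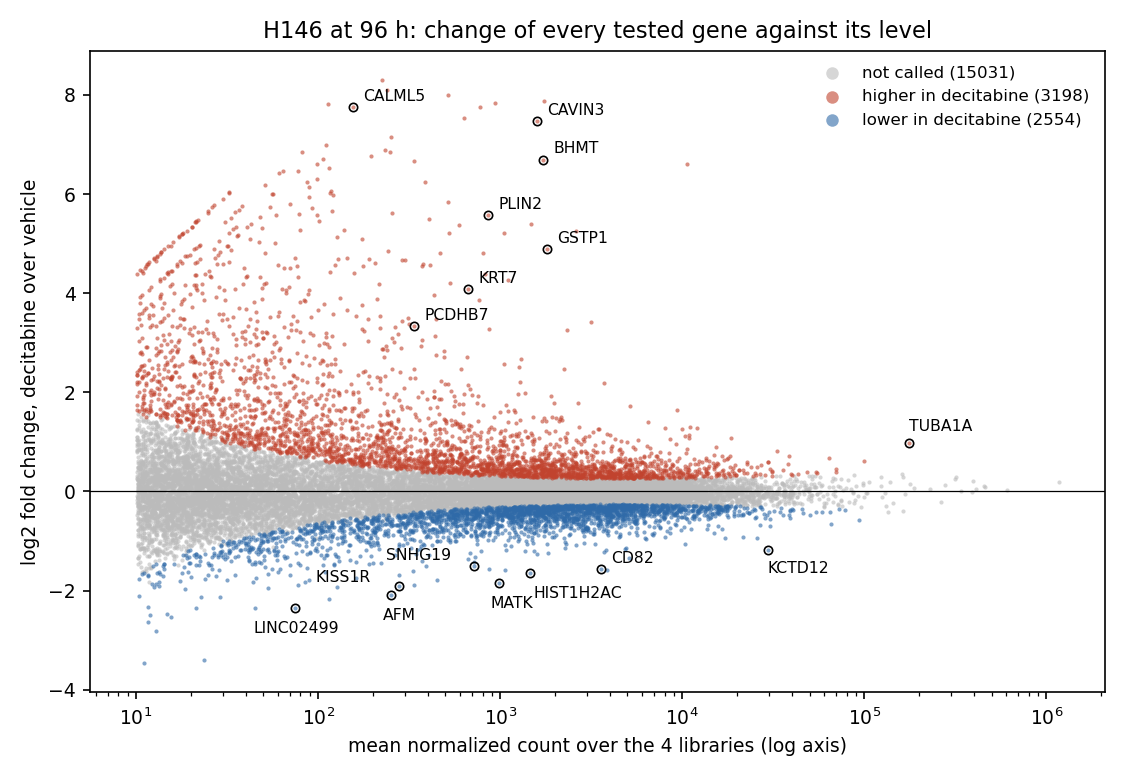
Log2 fold change (decitabine over vehicle) of each of the 20783 tested genes against its mean normalized count over the 4 libraries on a log axis; red points are called higher, blue points lower and gray points not called, and circled genes are named in the text. Rises reach 8 on the log2 scale at low and middle levels, while falls rarely pass −2.

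Markers of other cell types were also present and in part higher. Of 12 tested endothelial and pericyte genes 7 were higher and 1 lower (4 higher without decitabine replicate 1 or 2), and their summed level was 7045 and 6909.7 in decitabine against 5404 and 5428 in vehicle. PECAM1, the endothelial adhesion molecule, had 413 and 423 in decitabine, against 42.1 and 77 in vehicle (7.02-fold, limma adjusted p 6.8e-10), and VWF, which binds platelets, had 696 and 714 in decitabine, against 305 and 312 in vehicle. CDH5, the defining endothelial cadherin, was low in every library at 30.0 and 41.5 with decitabine and 19.1 and 20.5 with vehicle and was not called. Fibroblast markers (5 higher and 1 lower of 9) summed to 18581 and 17941 in decitabine against 14424 and 13542 in vehicle (2 higher without decitabine replicate 1 or 2). The fibroblast matrix gene DCN, 1 of the 3 members without a call, had 48 and 22.2 in decitabine, against 29.1 and 44.1 in vehicle with overlapping arms. Immune markers summed to 4432 and 4066 in decitabine against 4339 and 4344 in vehicle. Of 11 tested 2 were higher, both by 2-fold or more, and 1 was lower (median log2 fold change 0.32). The lower one was the leukocyte phosphatase gene PTPRC, with 285 and 317 in decitabine, against 420.3 and 419 in vehicle (limma adjusted p 0.0199). That call was lost without decitabine replicate 1 or 2 and without a variance trend. Lung epithelial markers (4 higher and 2 lower of 9) summed to 28942 and 28107 in decitabine against 36338 and 31734 in vehicle. The part of other cells in the groups described below was not tested. EPCAM, the epithelial surface marker, had 29295 and 27491 in decitabine, against 25401 and 26687 in vehicle and was not called.

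Among the steepest rises outside the germline program were genes from unrelated tissues and functions. CAVIN3, a coat protein of the membrane pits called caveolae, had 3406 and 2901 in decitabine, against 16 and 17.4 in vehicle, a 188-fold difference (log2 fold change 7.47 ± 0.18 SE, limma adjusted p 1.05e-20). BHMT, which remethylates homocysteine with betaine in liver and kidney, had 3411 and 3404 in decitabine, against 34.1 and 29.8 in vehicle, 107-fold higher (limma adjusted p 1.05e-20). Its neighbour BHMT2, a related methyltransferase, had 533 and 462 in decitabine, against 10.0 and 8.21 in vehicle. In all of these the lowest decitabine value stands more than an order of magnitude above the highest vehicle value. KCNV2, a modifier subunit of potassium channels in the retina, had 1063 and 977 in decitabine, against 19.1 and 37 in vehicle and was 36.4-fold higher. TGFBI, a matrix protein induced by TGF-beta, had 330.0 and 351 in decitabine, against 15 and 12.3 in vehicle and was 24.9-fold higher. GRIA1, an AMPA-type glutamate receptor subunit, had 458 and 501 in decitabine, against 67.2 and 32.8 in vehicle.

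Several genes were close to silent in vehicle. CALML5, a calmodulin-like protein of the epidermis, had 337 and 280.2 in decitabine, against 0 and 1.03 in vehicle, a ratio of reads of 607 (95% counting interval 109 to 24027). ELF5, a transcription factor of mammary and placental epithelium, had 100 and 103 in decitabine, against 1.0 and 0 in vehicle, a ratio of 201 (95% counting interval 35.6 to 7958). TCL1A, a kinase coactivator of early B cells, had 248 and 209.6 in decitabine, against 1.0 and 2.05 in vehicle, a ratio of 150.1 (95% counting interval 51.1 to 731). These intervals cover counting error only. ERVW-1, the envelope gene of an endogenous retrovirus that encodes syncytin in the placenta, had 536 and 448 in decitabine, against 5.02 and 2.05 in vehicle (log2 fold change 6.84 ± 0.34 SE, limma adjusted p 5.86e-14). L1TD1, a gene derived from a transposon and active in embryonic stem cells, had 227 and 212 in decitabine, against 2.01 and 0 in vehicle, a ratio of 216 (95% counting interval 59.4 to 1789). In each of these genes both decitabine libraries are far above both vehicle libraries, which hold a few reads at most.

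The upstream sequences of 5 genes that rose steeply are printed to show how CpG-rich their starts are, since CpG is what DNMT1 acts on. They are the 250 bases before the annotated start, 5′ to 3′ on the gene's strand, from RefSeq on GRCh38.p14, with each CpG in capitals, and were picked after the values were seen. The positions are chr11:67583562-67583811 (plus strand) for GSTP1, chr9:19127493-19127742 (minus strand) for PLIN2, chr5:79111559-79111808 (plus strand) for BHMT, chr2:131475869-131476118 (plus strand) for TUBA3D and chr10:5499571-5499820 (minus strand) for CALML5.
GSTP1: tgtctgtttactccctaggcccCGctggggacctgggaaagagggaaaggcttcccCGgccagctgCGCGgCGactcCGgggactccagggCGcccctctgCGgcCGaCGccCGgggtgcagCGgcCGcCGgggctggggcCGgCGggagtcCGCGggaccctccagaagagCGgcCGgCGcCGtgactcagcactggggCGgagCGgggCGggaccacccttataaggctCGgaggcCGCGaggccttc
PLIN2: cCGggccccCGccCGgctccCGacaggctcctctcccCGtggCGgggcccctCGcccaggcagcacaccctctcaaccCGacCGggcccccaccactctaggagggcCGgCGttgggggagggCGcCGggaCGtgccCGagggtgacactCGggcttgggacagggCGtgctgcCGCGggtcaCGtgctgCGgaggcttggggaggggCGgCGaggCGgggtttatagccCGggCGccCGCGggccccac
BHMT: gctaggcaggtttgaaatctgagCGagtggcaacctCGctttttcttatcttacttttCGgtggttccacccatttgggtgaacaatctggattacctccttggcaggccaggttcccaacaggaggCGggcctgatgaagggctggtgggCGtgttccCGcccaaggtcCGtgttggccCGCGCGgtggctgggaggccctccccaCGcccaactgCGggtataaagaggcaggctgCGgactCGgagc
TUBA3D: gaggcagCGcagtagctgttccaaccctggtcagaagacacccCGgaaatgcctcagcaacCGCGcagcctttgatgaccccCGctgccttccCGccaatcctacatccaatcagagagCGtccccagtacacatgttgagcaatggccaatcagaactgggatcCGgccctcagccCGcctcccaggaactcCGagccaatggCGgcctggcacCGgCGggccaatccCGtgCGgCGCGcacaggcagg
CALML5: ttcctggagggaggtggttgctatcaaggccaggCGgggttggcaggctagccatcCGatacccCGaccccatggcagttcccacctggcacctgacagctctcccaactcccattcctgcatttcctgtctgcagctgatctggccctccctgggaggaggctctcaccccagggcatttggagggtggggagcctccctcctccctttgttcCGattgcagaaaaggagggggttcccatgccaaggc

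In the whole window of 300 bases, which adds 50 bases after the start, GSTP1 and PLIN2 hold 36 CpG each, BHMT 21, TUBA3D 19 and CALML5 7. The median over the 35116 windows of the table is 14 (quartiles 4 and 28). A window with at least as many CpG as those of GSTP1 and PLIN2 is found for 12.7% of the table, with at least those of BHMT for 39.5%, and with at least those of CALML5 for 63.2%. The steep rises shown thus include CpG-dense and CpG-poor starts. Only 60.5% of the tested genes matched a window by symbol, so a comparison of CpG content over called genes is void and was not made. Methylation was not measured in these libraries.

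GSTP1 belongs to the group of glutathione and oxidative stress genes, of which 19 of 54 tested members were higher and 6 lower (median log2 fold change 0.18, 6 or 11 higher without decitabine replicate 1 or 2, 6 higher without a variance trend, 3 lower without decitabine replicate 1, 1 lower without a variance trend). GSTP1 encodes a glutathione transferase whose promoter methylation is a classic finding in prostate cancer, and it had 3620.0 and 3374 in decitabine, against 119 and 115 in vehicle, 29.8-fold higher (limma adjusted p 1.2e-19). MGST1, a membrane-bound transferase of the same reaction, had 2141 and 2039 in decitabine, against 103 and 113 in vehicle, 19.3-fold higher (limma adjusted p 9.55e-18). NQO1, a quinone reductase, had 2947 and 2628 in decitabine, against 1334 and 1083 in vehicle, 2.31-fold higher. The 3 genes differ in their vehicle level, and in each both decitabine values lie above both vehicle values. In the other direction, the mitochondrial thioredoxin reductase gene TXNRD2 had 1164 and 1171 in decitabine, against 1795 and 1771 in vehicle (log2 fold change −0.61 ± 0.11 SE, limma adjusted p 0.000107).

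Fat metabolism went both ways, with 14 of 55 genes higher and 12 lower (9 higher without decitabine replicate 2, 3 or 5 lower without decitabine replicate 1 or 2, 0 lower without a variance trend). PLIN2, which coats lipid droplets, had 1698 and 1653 in decitabine, against 29.1 and 40.0 in vehicle, 48.5-fold higher (limma adjusted p 9.41e-18). FABP7, a fatty acid carrier of brain, had 634 and 553 in decitabine, against 151 and 143 in vehicle and was 4.03-fold higher. ACSL6, which activates long-chain fatty acids, had 268 and 368 in decitabine, against 124 and 122 in vehicle. FASN, the fatty acid synthase, had 17251 and 17818 in decitabine, against 38980.0 and 29021 in vehicle (log2 fold change −0.94 ± 0.12 SE, limma adjusted p 2.45e-06, and 0.0543 without a variance trend). ACACA, which makes the malonyl-CoA that FASN uses, had 5290.0 and 5855 in decitabine, against 9234 and 7956 in vehicle (log2 fold change −0.62 ± 0.10 SE, limma adjusted p 5.59e-05, and 0.0685 without a variance trend). For both synthesis genes the arms do not overlap, and the vehicle libraries differ more from each other than the decitabine libraries do.

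**Figure D2:**
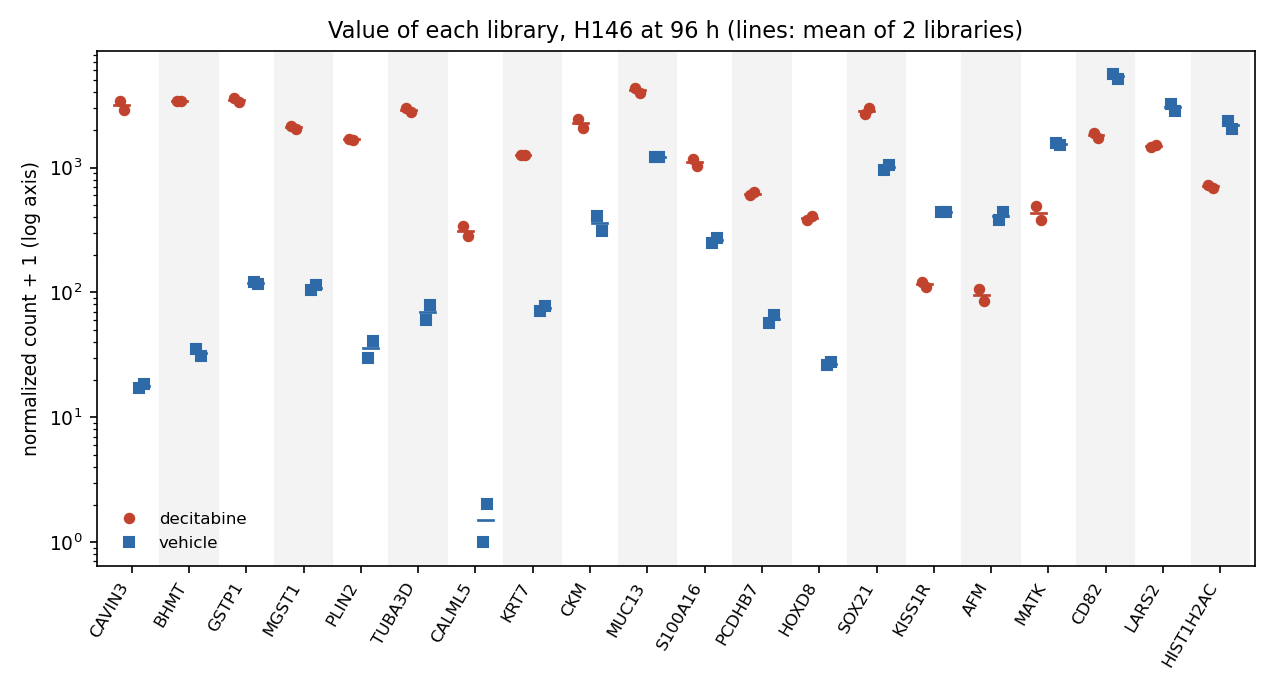
Normalized count plus 1 (log axis) of 20 genes in each library; red circles are the 2 decitabine libraries, blue squares the 2 vehicle libraries, and lines their means. The arms stand apart for each gene shown, for example CAVIN3 with 3406 and 2901 in decitabine, against 16 and 17.4 in vehicle, and HIST1H2AC with 721 and 687 in decitabine, against 2377 and 2022 in vehicle.

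Genes restricted to other tissues rose unevenly. Of 38 listed gut and pancreas genes 12 were tested and 9 of these were higher (median log2 fold change 1.55), although 2 were under 10 in both vehicle libraries and so had to differ. CPA1, a pancreatic carboxypeptidase, had 113 and 136 in decitabine, against 14 and 3.08 in vehicle. The trefoil peptide gene TFF1 of the stomach had 210.0 and 160.4 in decitabine, against 15 and 12.3 in vehicle and TFF2 had 178 and 157 in decitabine, against 28.1 and 11.3 in vehicle. MUC13, a transmembrane mucin of the intestine, had 4363 and 3949 in decitabine, against 1207 and 1218 in vehicle and was 3.43-fold higher (limma adjusted p 1.21e-12). VIL1, which bundles actin in microvilli, had 11471 and 11293 in decitabine, against 7511 and 7302 in vehicle, a smaller rise from a high level (log2 fold change 0.62 ± 0.10 SE). In each of these 5 genes both decitabine values exceed both vehicle values. PRSS1, the trypsinogen gene, had 25 and 30.9 in decitabine, against 26.1 and 22.6 in vehicle and was not called.

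Muscle genes rose in part. Of 36 listed genes 20 were tested. In decitabine 8 of these stood higher and 1 lower, and 3 had been under 10 in both vehicle libraries. DES, the intermediate filament of muscle, had 136 and 115 in decitabine, against 5.02 and 4.11 in vehicle (27.5-fold). CKM, the muscle creatine kinase, had 2423 and 2089 in decitabine, against 406 and 308 in vehicle and was 6.32-fold higher (limma adjusted p 5.86e-14). The oxygen carrier gene MB had 204 and 194 in decitabine, against 25.1 and 19.5 in vehicle. Skeletal actin, ACTA1, had 199 and 185 in decitabine, against 26.1 and 39 in vehicle, and MYL3, a myosin light chain of heart and slow muscle, had 93 and 85 in decitabine, against 14 and 12.3 in vehicle. The decitabine values of these 5 genes are several times the vehicle values in both libraries. The master regulator MYOD1 was among the 11 members without a call, at 13 and 15.5 with decitabine and 10.0 and 12.3 with vehicle.

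In the skin and squamous group 11 of 40 listed genes were tested, with 7 higher and 2 lower, and 2 under 10 in both vehicle libraries. CALML3, a calmodulin-like protein of epithelia, had 847 and 737 in decitabine, against 12 and 22.6 in vehicle, 45.8-fold higher (limma adjusted p 9.3e-15). TGM3, a transglutaminase of the hair follicle and epidermis, had 3283 and 3078 in decitabine, against 1196 and 1153 in vehicle. SERPINB5, the maspin gene, had 359 and 385 in decitabine, against 184 and 170.4 in vehicle. All 3 had arms that stand apart.

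Keratins, the filament proteins of epithelia, were higher in 12 of 16 cases and lower in 0 (median log2 fold change 0.94; 3 were under 10 in both vehicle libraries, 7 or 5 higher without decitabine replicate 1 or 2). KRT7, a keratin of simple ducts and glands, had 1251 and 1257 in decitabine, against 70.2 and 77 in vehicle and was 17-fold higher (limma adjusted p 2.8e-16). KRT9, a keratin of palms and soles, had 122 and 124 in decitabine, against 17.1 and 32.8 in vehicle. KRT13, a keratin of moist squamous lining, had 39 and 23.2 in decitabine, against 0 and 0 in vehicle, at least 20.3-fold higher against a floor of 3 reads over the vehicle arm. The abundant KRT19 rose less, with 28361 and 25854 in decitabine, against 18858 and 17253 in vehicle (log2 fold change 0.59 ± 0.11 SE, limma adjusted p 0.000239, and 0.0612 without a variance trend). The epidermal KRT10 had 2393 and 2074 in decitabine, against 1919 and 2736 in vehicle with overlapping arms and no call.

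Of 10 tested liver genes 1 was higher, the heme scavenger gene HPX at 75 and 74.4 with decitabine and 11 and 13.3 with vehicle, and 2 were lower, among them AFP, the fetal albumin homolog, at 355 and 345 with decitabine and 685 and 694 with vehicle. Of 12 red cell and platelet genes 1 was higher and 1 lower, and the lower one was HBQ1, a globin-like gene, at 102 and 74.4 with decitabine and 232 and 239 with vehicle. Among 16 eye and lens genes 5 were higher and 3 lower (3 or 2 higher without decitabine replicate 1 or 2, 1 lower without decitabine replicate 1 or 2, 0 lower without a variance trend): GNAT1, the transducin of rods, had 68 and 70.5 in decitabine, against 7.02 and 7.18 in vehicle, and the lens crystallin gene CRYBB1 had 245 and 222 in decitabine, against 95.3 and 95.5 in vehicle. Of 7 placental genes 3 were higher by 2-fold or more and 0 lower, led by ERVW-1 (median log2 fold change 0.88, 1 higher without decitabine replicate 1). With 1 rise each, the shares of the liver list and of the red cell and platelet list cannot be told from the 15.4% of all genes.

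**Figure D3:**
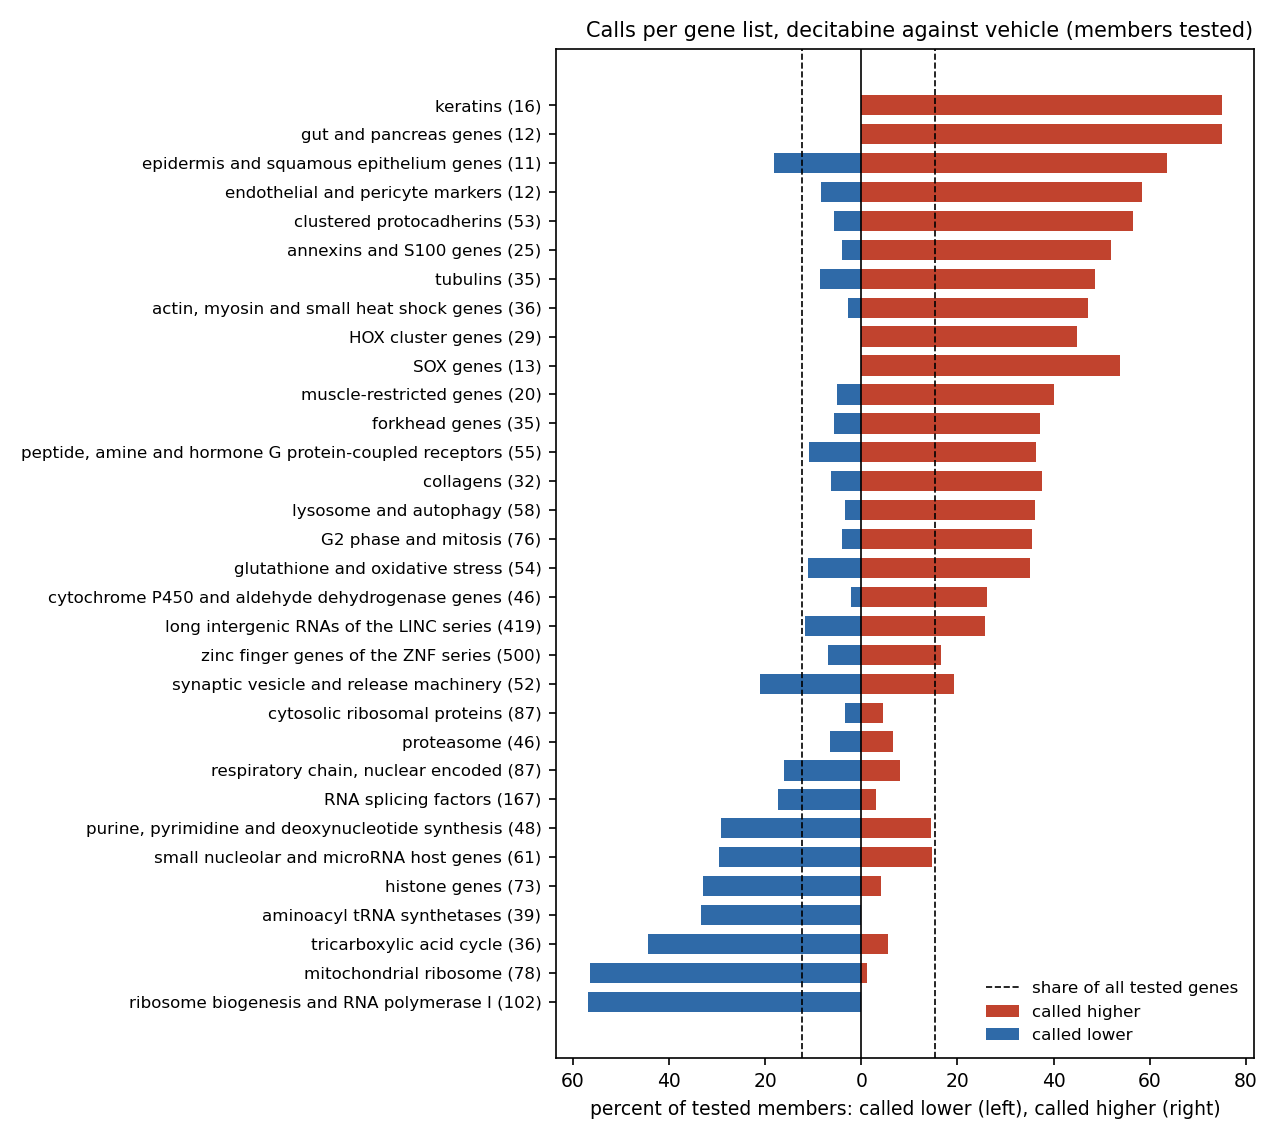
Percent of the tested members of 32 gene lists called higher (red, to the right) or lower (blue, to the left) in decitabine, with the number tested in parentheses; dashed lines mark the shares of all tested genes, 15.4% higher and 12.3% lower. Keratins and gut genes reach 75% on the right, and ribosome biogenesis and mitochondrial ribosome genes pass 56% on the left.

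Adhesion and matrix families followed. Of 53 clustered protocadherins, cell surface proteins that neurons use in varied combinations, 30 were higher and 3 lower, 24 of the rises by 2-fold or more (median log2 fold change 0.84; 3 had been under 10 in both vehicle libraries, 19 higher without decitabine replicate 2, 1 lower without decitabine replicate 1, 0 lower without a variance trend). Rises counted 10 of 15 alpha, 7 of 16 beta and 13 of 22 gamma genes, a split made after the values were seen. PCDHB7 had 600.0 and 631 in decitabine, against 56.2 and 64.7 in vehicle and was 10.2-fold higher (limma adjusted p 5.1e-13). PCDHGA11 had 182 and 149.7 in decitabine, against 8.02 and 11.3 in vehicle, and PCDHA6 had 163 and 144 in decitabine, against 27.1 and 23.6 in vehicle. PCDHGC4, of the constant end of the gamma cluster, was abundant in both arms with 1641 and 1831 in decitabine, against 1007 and 781 in vehicle. In the reverse direction PCDHGA1 had 231 and 163 in decitabine, against 322 and 301 in vehicle (limma adjusted p 0.00707, 0.241 without decitabine replicate 2 and 0.121 without a variance trend). Members of the alpha and of the gamma cluster share their last exons and overlap, so reads can be split between them, and the strandedness of the libraries is not given in the sources used here.

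Annexins and S100 genes, calcium-binding proteins of membranes and cytoplasm, were higher in 13 of 25 cases and lower in 1 (median log2 fold change 0.67; 4 were under 10 in both vehicle libraries). S100P had 203 and 185 in decitabine, against 1.0 and 7.18 in vehicle, 47.3-fold higher (limma adjusted p 1.66e-09). S100A16 had 1172 and 1027 in decitabine, against 246 and 274 in vehicle, 4.23-fold higher. The metastasis-linked S100A4 had 166 and 129 in decitabine, against 12 and 23.6 in vehicle. All 3 were low or moderate in vehicle, whereas S100A6 was abundant in both arms, with 10105 and 9061 in decitabine, against 5289 and 5816 in vehicle (log2 fold change 0.79 ± 0.10 SE). ANXA6, a large annexin, was lower, with 3885 and 3638 in decitabine, against 5447 and 5074 in vehicle (limma adjusted p 0.000564, and 0.0768 without a variance trend).

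Of 32 collagen genes 12 were higher and 2 lower (7 or 5 higher without decitabine replicate 1 or 2). COL21A1, a fibril-associated collagen, had 757 and 819 in decitabine, against 79.2 and 101 in vehicle, 8.77-fold higher (limma adjusted p 4.07e-13). COL17A1, of the skin's hemidesmosomes, had 154 and 145 in decitabine, against 34.1 and 55.4 in vehicle. Both were low in vehicle, and the arms do not overlap. Of 29 tight junction genes 11 were higher and 4 lower (7 higher without decitabine replicate 1 or 2, 1 or 2 lower without decitabine replicate 1 or 2, 2 lower without vehicle replicate 1, 0 lower without a variance trend), with CLDN4 at 1674 and 1623 with decitabine and 525 and 463 with vehicle and CLDN23 at 719 and 723 with decitabine and 201 and 196 with vehicle. Of the 29 tight junction genes 3 were under 10 in both vehicle libraries, 2 of them among the rises. CLDN19, a claudin of kidney and retina, had 51 and 54.1 in decitabine, against 0 and 0 in vehicle, at least 34.5-fold higher against 3 reads over the vehicle arm.

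Tubulin genes were among the largest gains in level. TUBA1A, the main alpha-tubulin of young neurons, had 242760.0 and 220284 in decitabine, against 125198 and 111292 in vehicle, the largest gain in mean normalized count of any called gene (log2 fold change 0.97 ± 0.17 SE, limma adjusted p 7.83e-05). The neuronal beta-tubulin TUBB2B had 82369 and 75079 in decitabine, against 50677 and 47413 in vehicle, the third largest gain, and TUBB2A had 25683 and 24361 in decitabine, against 12259 and 11604 in vehicle. The second largest gain was that of the creatine kinase gene CKB, with 128826 and 110323 in decitabine, against 78996 and 77573 in vehicle (limma adjusted p 0.00272, 0.0646 without a variance trend and 0.148 without decitabine replicate 1). TUBA3D, an alpha-tubulin of testis, had 3013 and 2766 in decitabine, against 59.2 and 78 in vehicle, 42.1-fold higher (limma adjusted p 4.04e-19). TUBA3 and TUBB8 genes have near-identical copies, so reads of TUBA3D, TUBA3E and TUBB8 may be assigned to one another's copies. Of 26 alpha- and beta-tubulin genes 16 were higher and 0 lower, against 1 higher and 3 lower of the 9 other genes on the list. This split was made after the values were seen. The falls were those of TUBE1 and of TUBGCP3 and TUBGCP4, which encode proteins of the gamma-tubulin complex and not tubulins. Over all 35 genes the count was 17 higher and 3 lower, with 3 under 10 in both vehicle libraries (1 lower without decitabine replicate 1 or 2, 0 lower without a variance trend), and the summed level was 789967 and 722881 in decitabine against 546510.0 and 483877 in vehicle.

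Of 36 actin, myosin and small heat shock genes 17 were higher and 1 lower (8 or 9 higher without decitabine replicate 1 or 2, 11 higher without vehicle replicate 2). ACTG2, the enteric smooth muscle actin, had 6439 and 5786 in decitabine, against 1381 and 1300.4 in vehicle, 4.56-fold higher (limma adjusted p 1.32e-14). CNN2, a calponin, had 569 and 546 in decitabine, against 148 and 145.75 in vehicle, and ZYX, a focal adhesion protein, had 705 and 558 in decitabine, against 219.7 and 173 in vehicle. HSPB8, a small heat shock protein of muscle, had 607 and 636 in decitabine, against 199 and 147 in vehicle. In these genes the decitabine values are 2 or more times the vehicle values in each library. CRYAB, a small heat shock protein of lens and muscle, was the member that fell, with 425 and 484 in decitabine, against 613 and 731 in vehicle (limma adjusted p 0.00367; 0.128 without decitabine replicate 1 and 0.0985 without a variance trend).

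Developmental transcription factor families differed in how many members were called. Of 29 HOX genes, which set position along the body axis, 13 were higher and 0 lower (median log2 fold change 0.39; 4 were under 10 in both vehicle libraries). HOXD8 had 382 and 409 in decitabine, against 25.1 and 26.7 in vehicle, 15.3-fold higher (limma adjusted p 1.67e-12). HOXA9 had 467 and 462 in decitabine, against 46.1 and 69.8 in vehicle, and HOXB5 had 1075 and 947 in decitabine, against 292 and 225 in vehicle. The rises were 6 of 9 HOXD, 5 of 9 HOXB and 2 of 11 HOXA genes, a split made after the values were seen. HOXA10 had 2867 and 2817 in decitabine, against 2760.3 and 2757 in vehicle and was not called.

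Among 80 other homeobox genes 25 were higher and 5 lower, and 6 had been under 10 in both vehicle libraries (14 higher without decitabine replicate 1 or 2, 2 or 1 lower without decitabine replicate 1 or 2, 3 lower without vehicle replicate 2, 0 lower without a variance trend). TLX3, which specifies excitatory neurons of the spinal cord, had 549 and 437 in decitabine, against 46.1 and 61.6 in vehicle and was 9.15-fold higher. OTX2, of forebrain and eye, had 90.0 and 95.6 in decitabine, against 9.03 and 3.08 in vehicle. SIX6, of the retina and pituitary, had 47 and 37.7 in decitabine, against 0 and 1.03 in vehicle, a ratio of reads of 83.3 (95% counting interval 14.6 to 3328). EMX1, of the cortex, was lower at 1007 and 882 with decitabine and 1332 and 1431 with vehicle (limma adjusted p 0.00077, with 0.0754 without a variance trend and 0.0584 without decitabine replicate 2).

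Forkhead genes were higher in 13 of 35 cases and lower in 2 (7 or 8 higher without decitabine replicate 1 or 2). FOXJ1, the switch of motile cilia, had 5069 and 4672 in decitabine, against 2604 and 2294 in vehicle. SOX genes were higher in 7 of 13 cases and lower in 0 (2 or 4 higher without decitabine replicate 1 or 2): the neural progenitor genes SOX21 and SOX1 had 2678 and 3001 in decitabine, against 951 and 1050.0 in vehicle and 1239 and 1135 in decitabine, against 637 and 626 in vehicle. By contrast, of the 500 zinc finger genes named ZNF, most of them repressors of transposons and other targets, 83 were higher (fewer without decitabine replicate 1 or 2, 21 without a variance trend). Lower were 35 (fewer without decitabine replicate 1 or 2 or vehicle replicate 2, 4 without a variance trend). The shares were 16.6% higher, close to the 15.4% of all genes, and 7% lower, under the 12.3% of all genes. All 7 members under 10 in both vehicle libraries were among the rises. Basic helix-loop-helix lineage genes went both ways, 11 higher and 8 lower of 43 (fewer higher without decitabine replicate 1 or 2, fewer lower without decitabine replicate 2, 2 lower without a variance trend). Of the 11 rises 4 were under 10 in both vehicle libraries and so could differ only upward. GATA, TBX and RUNX genes had 6 higher and 3 lower of 25 (median log2 fold change −0.01, 3 higher without decitabine replicate 2, 1 or 0 lower without decitabine replicate 1 or 2, 0 lower without a variance trend), and KLF and SP genes 5 and 4 of 24 (3 higher without decitabine replicate 1 or 2, 2 lower without decitabine replicate 1 or 2, 2 lower without vehicle replicate 1, 1 lower without a variance trend).

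Receptors for hormones and transmitters were called higher in 36.4% of cases, against 15.4% of all genes. The share lower, 10.9%, was close to the 12.3% of all genes. Of 55 peptide, amine and hormone receptor genes 20 were higher, 16 of them by 2-fold or more, and 6 were lower (5 of the 55 were under 10 in both vehicle libraries). NMUR2, a neuromedin U receptor, had 341 and 307 in decitabine, against 27.1 and 41.1 in vehicle, 9.51-fold higher (limma adjusted p 1.52e-10). BRS3, an orphan relative of the bombesin receptors, had 100 and 100 in decitabine, against 6.02 and 10.3 in vehicle. The vasopressin receptor gene AVPR1A had 296 and 296 in decitabine, against 58.2 and 52.3 in vehicle, and the dopamine receptor gene DRD2 had 4757 and 4306 in decitabine, against 2107 and 1836 in vehicle (2.30-fold). HTR3E, a subunit of the serotonin-gated ion channel that the list also holds, had 167 and 133 in decitabine, against 23.1 and 20.5 in vehicle. Both decitabine values exceed both vehicle values in each. On the lower side KISS1R, the kisspeptin receptor, had 121 and 110.1 in decitabine, against 437 and 440.3 in vehicle (log2 fold change −1.92 ± 0.18 SE, limma adjusted p 5.58e-09). HRH3, the presynaptic histamine receptor, had 1921 and 1835 in decitabine, against 3979 and 3786 in vehicle, and CCKBR, the gastrin receptor, had 3360.0 and 2941 in decitabine, against 6428 and 5408 in vehicle. KISS1R is among the steepest falls of the protein-coding genes named by rank.

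Ion channels were called in both directions, against 15.4% higher and 12.3% lower among all genes. The shares were 20.6% higher and 23.5% lower for voltage-gated sodium and calcium channels. Voltage-gated potassium channels had 15.2% higher, the background share, and 18.2% lower. For synaptic release genes, counted below, the shares were 19.2% and 21.2%. Among 34 voltage-gated sodium and calcium channel genes 7 were higher and 8 lower (3 higher without decitabine replicate 1 or 2, 3 lower without decitabine replicate 1, 2 lower without a variance trend), and among 33 voltage-gated potassium channel genes 5 were higher and 6 lower (3 higher without decitabine replicate 2, 3 lower without decitabine replicate 1 or 2, 3 lower without vehicle replicate 1, 2 lower without a variance trend). Muscle-type subunits were among the rises: CACNG1, the gamma subunit of the skeletal muscle calcium channel, had 678 and 624 in decitabine, against 91.3 and 78 in vehicle (7.69-fold), and CHRNE, a subunit of the muscle acetylcholine receptor, had 91 and 77.3 in decitabine, against 4.01 and 11.3 in vehicle. For both, each decitabine value is several times each vehicle value. The release machinery of synaptic vesicles was close to even, with 10 of 52 higher and 11 lower (6 or 5 higher without decitabine replicate 1 or 2, 6 higher without vehicle replicate 2, 3 or 4 lower without decitabine replicate 1 or 2, 1 lower without a variance trend); CPLX1, a clamp of vesicle fusion, had 4342 and 3619 in decitabine, against 7617 and 6900.4 in vehicle (log2 fold change −0.87 ± 0.11 SE, limma adjusted p 6.37e-07).

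Secreted factors rose in part. MDK, the heparin-binding growth factor midkine, had 9809.9 and 8981 in decitabine, against 3733 and 3409.7 in vehicle, 2.63-fold higher (limma adjusted p 6.63e-11). FGF19, a bile acid-regulating hormone of the gut, had 958 and 877 in decitabine, against 297 and 243 in vehicle. DKK3, a secreted member of the dickkopf family, had 3537 and 3633 in decitabine, against 1916 and 1667 in vehicle. Among chemokines CXCL17, of mucosal surfaces, had 1254 and 1029.9 in decitabine, against 173 and 171 in vehicle (6.64-fold) and CXCL14 had 4643 and 3787 in decitabine, against 2022 and 1862 in vehicle, whereas CXCL8, the neutrophil attractant interleukin-8, had 8.0 and 12.6 in decitabine, against 47.1 and 48.2 in vehicle (log2 fold change −2.14 ± 0.42 SE, limma adjusted p 0.000349). Of 48 growth factor and related genes 13 were higher and 3 lower (5 or 7 higher without decitabine replicate 1 or 2, 1 lower without decitabine replicate 2, 1 lower without a variance trend), and of 40 chemokine and interleukin genes 9 were higher and 6 lower (4 or 5 higher without decitabine replicate 1 or 2, 2 lower without decitabine replicate 1 or 2, 2 lower without a variance trend).

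Genes of mitochondrial protein synthesis and of the citrate cycle fell together, by small amounts. Of 78 mitochondrial ribosome genes 44 were lower and 1 higher (median log2 fold change −0.32, 19 lower without decitabine replicate 2, 7 lower without a variance trend). MRPS28, of the small subunit, had 1008 and 1009 in decitabine, against 2136 and 1849 in vehicle (log2 fold change −0.98 ± 0.11 SE, limma adjusted p 2.4e-07). MRPL19, of the large subunit, had 2272 and 2146 in decitabine, against 3703 and 3696 in vehicle. The exception was MRPS6, with 2331 and 2226 in decitabine, against 1797 and 1562 in vehicle (limma adjusted p 0.00281, 0.082 without decitabine replicate 1 and 0.109 without a variance trend). The enzymes that load tRNAs were lower in 13 of 39 cases and higher in 0 (8 or 7 lower without decitabine replicate 1 or 2, 4 lower without a variance trend), 9 of 17 mitochondrial and 4 of 22 other ones, a split made after the values were seen. The mitochondrial leucyl enzyme LARS2 had 1469 and 1518 in decitabine, against 3228 and 2854 in vehicle (log2 fold change −1.02 ± 0.11 SE), SARS2 had 617 and 603 in decitabine, against 1127 and 1296 in vehicle and EARS2 had 2326 and 2369.9 in decitabine, against 4432 and 3909 in vehicle.

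Of 36 genes of the citrate cycle and its feeders 16 were lower and 2 higher (median log2 fold change −0.26, 4 lower without decitabine replicate 1 or 2, 9 lower without vehicle replicate 1, 0 lower without a variance trend). PC, the pyruvate carboxylase, had 1934 and 1877 in decitabine, against 3105 and 2657 in vehicle (log2 fold change −0.59 ± 0.11 SE, limma adjusted p 0.000129, and 0.0682 without a variance trend). SUCLG2, of succinyl-CoA ligase, had 428 and 469 in decitabine, against 743 and 628 in vehicle (limma adjusted p 0.00157; 0.0752 without a variance trend and 0.08 without decitabine replicate 1). The rises were PCK1, the cytosolic enzyme that starts glucose synthesis, with 982 and 936 in decitabine, against 302 and 265 in vehicle (3.38-fold), and ME1, the cytosolic malic enzyme, with 1358 and 1441 in decitabine, against 763 and 719.5 in vehicle. Nuclear genes of the respiratory chain had 7 higher and 14 lower of 87 (3 or 4 higher without decitabine replicate 1 or 2, 4 higher without vehicle replicate 2, 6 or 2 lower without decitabine replicate 1 or 2, 6 lower without vehicle replicate 1, 1 lower without a variance trend), and the mitochondrially encoded MT-CO1, without a call, was at 1389360.0 and 1096330.0 with decitabine and 1122060.0 and 1056350.0 with vehicle. The nuclear respiratory genes were thus 8.05% higher and 16.1% lower, against 15.4% and 12.3% of all genes. Their median vehicle level was 6238, and of all genes at 1000 to 10000 in vehicle 18.4% were lower, so these falls do not exceed that share. The mitochondrial share of reads was 7.56% and 6.19% in decitabine and 6.09% and 6.29% in vehicle.

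Ribosome making held the most falls of the gene lists. Of 102 genes of ribosome biogenesis and RNA polymerase I 58 were lower and 0 higher (median log2 fold change −0.34, 31 or 29 lower without decitabine replicate 1 or 2, 6 lower without a variance trend). RRP15, which matures the large subunit, had 2120.0 and 2001 in decitabine, against 3708 and 3405 in vehicle (log2 fold change −0.79 ± 0.10 SE, limma adjusted p 1.67e-06), and NOP14, of the small subunit processome, had 4139 and 4248 in decitabine, against 6199 and 6479 in vehicle. These are shifts of under 2-fold in which the arms do not overlap. Part of this list is known to be under control of MYC. The 87 cytosolic ribosomal protein genes had 4 higher and 3 lower members (0 higher without decitabine replicate 1, 1 higher without a variance trend, 0 lower without decitabine replicate 2, 0 lower without a variance trend). All 4 of the higher ones, RPL10L, RPL22L1, RPL39L and RPS27L, are variant copies of a standard ribosomal protein gene, and copies can share reads. None of the 4 was called without decitabine replicate 1. RPL39L, of testis and embryonic stem cells, had 272 and 257 in decitabine, against 161 and 144 in vehicle (limma adjusted p 0.00185, and 0.0952 and 0.0649 without decitabine replicates 1 and 2).

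Host genes of small nucleolar RNAs, whose introns carry the guides for rRNA modification, were on a list with hosts of microRNAs, of which 18 of 61 were lower and 9 higher (4 higher without decitabine replicate 1, 10 or 9 lower without decitabine replicate 1 or 2, 6 lower without a variance trend). Of 22 SNHG genes 14 were lower and 0 higher (median log2 fold change −0.69), a split of the host gene list made after the values were seen. SNHG10 had 151 and 174 in decitabine, against 451 and 544 in vehicle (log2 fold change −1.61 ± 0.17 SE, limma adjusted p 5.7e-08), and SNHG19 had 368 and 368 in decitabine, against 889.7 and 1245 in vehicle (log2 fold change −1.51 ± 0.15 SE). SNHG3 had 368 and 397 in decitabine, against 863 and 1234 in vehicle. The vehicle libraries differ from each other more than the decitabine libraries do in these genes, and replicate 2 is the higher vehicle library each time. Of the 39 other host RNAs of that list 9 were higher and 4 lower, with MEG3, an imprinted RNA of chromosome 14, at 2036 and 2077 with decitabine and 1161 and 897 with vehicle.

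Of 167 splicing factors 29 were lower (fewer without decitabine replicate 1 or 2 or vehicle replicate 2, 1 without a variance trend) and 5 higher (fewer without decitabine replicate 1 or 2). The shares were 17.4% lower and 2.99% higher, against 12.3% and 15.4% of all genes. Among all genes at a mean vehicle level of 1000 to 10000, 18.4% were lower and 11.9% higher. The neuronal splicing gene CELF3 had 1422 and 1438 in decitabine, against 886 and 923 in vehicle and was higher, and RBFOX1, of neurons and muscle, had 1054 and 1056 in decitabine, against 1603 and 1621 in vehicle and was lower (log2 fold change −0.61 ± 0.11 SE, limma adjusted p 0.000129). Both genes have library values within a few percent of each other inside an arm. Translation factors were lower in 10 of 58 cases and higher in 3 (0 or 1 higher without decitabine replicate 1 or 2, 0 higher without a variance trend, 5 or 3 lower without decitabine replicate 1 or 2, 1 lower without a variance trend), with EIF2B5, of the guanine exchange factor of initiation, at 5799 and 5523 with decitabine and 8965 and 9048 with vehicle. Proteasome genes had 3 higher and 3 lower of 46 (1 higher without a variance trend, 1 or 0 lower without decitabine replicate 1 or 2, 0 lower without a variance trend). The shares higher and lower were 5.17% and 17.2% for translation factors and 6.52% each for proteasome genes. PSMD5, an assembly chaperone of the proteasome, had the steepest rise of the proteasome list, with 139 and 104 in decitabine, against 8.02 and 20.5 in vehicle, 8.52-fold higher (limma adjusted p 5.74e-07).

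Nucleotide synthesis was lower in 14 and higher in 7 of 48 genes (4 or 3 higher without decitabine replicate 1 or 2, 5 lower without decitabine replicate 1 or 2, 2 lower without a variance trend). DHODH, which makes orotate for pyrimidines in mitochondria, had 346 and 356 in decitabine, against 585 and 578 in vehicle (log2 fold change −0.73 ± 0.14 SE, limma adjusted p 0.000309), and PFAS, of purine synthesis, had 3404 and 3417 in decitabine, against 5444 and 5039.6 in vehicle. On the arginine, polyamine and creatine list 9 of 29 genes were higher and 5 lower (2 or 3 higher without decitabine replicate 1 or 2, 3 higher without a variance trend, 1 lower without decitabine replicate 2). AMD1, which supplies the aminopropyl donor, had 3148 and 3524 in decitabine, against 5436 and 5126 in vehicle, and SAT1, which acetylates polyamines for export, had 3445 and 3011 in decitabine, against 1382 and 1483 in vehicle (2.25-fold higher). In all 4 genes the arms stand apart.

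**Figure D4:**
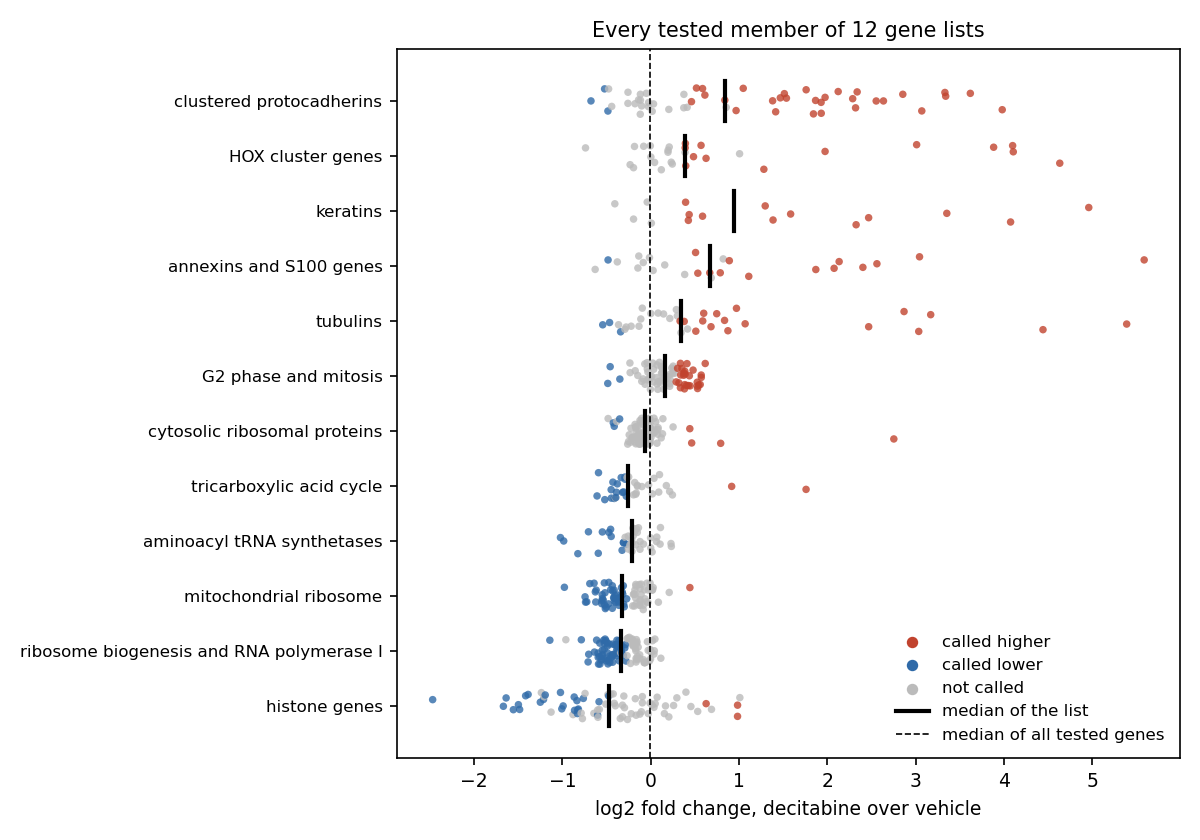
Log2 fold change (decitabine over vehicle) of every tested member of 12 gene lists, with red members called higher, blue lower and gray not called; thick bars are list medians and the dashed line is the median of all tested genes. Protocadherins, HOX genes and keratins spread to the right by up to 4 or 5, while the mitochondrial ribosome and ribosome biogenesis lists sit left of the line in tight groups.

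Of 76 genes of G2 phase and mitosis 27 were higher and 3 lower, none of them by 2-fold (median log2 fold change 0.16, 11 or 15 higher without decitabine replicate 1 or 2, 2 higher without a variance trend, 0 lower without decitabine replicate 1 or 2, 0 lower without a variance trend). CDCA5, the sororin gene of sister chromatid cohesion, had 15129.9 and 14627 in decitabine, against 9980.0 and 9436 in vehicle (log2 fold change 0.62 ± 0.10 SE, limma adjusted p 4.54e-05). The phosphatase gene CDC25C had 1039 and 1039.5 in decitabine, against 699 and 710.3 in vehicle (log2 fold change 0.56 ± 0.12 SE). The polo-like kinase gene PLK1 was among the falls, with 18079 and 18225 in decitabine, against 27110.4 and 22990.2 in vehicle (limma adjusted p 0.003). Its adjusted p was 0.11 without a variance trend, 0.0535 without vehicle replicate 1, and 0.0833 and 0.0723 without decitabine replicates 1 and 2.

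Replication genes were higher in 20 of 69 cases and lower in 6 (9 higher without decitabine replicate 1 or 2, 12 higher without vehicle replicate 2, 5 higher without a variance trend, 2 or 3 lower without decitabine replicate 1 or 2, 3 lower without vehicle replicate 1, 2 lower without a variance trend). GINS4, of the replicative helicase, had 1791 and 1681 in decitabine, against 807 and 894 in vehicle (2.04-fold), POLD4, the small subunit of polymerase delta, had 1988 and 1842 in decitabine, against 879.6 and 908 in vehicle, and E2F2, an S phase activator, had 6887 and 7324 in decitabine, against 4103 and 3751 in vehicle. TIPIN, of the fork protection complex, was lower with 582 and 575 in decitabine, against 973 and 884 in vehicle (limma adjusted p 0.000176). Homologous recombination genes were higher in 14 of 44 and lower in 4 (9 or 6 higher without decitabine replicate 1 or 2, 1 higher without a variance trend, 1 lower without decitabine replicate 1 or 2, 7 or 1 lower without vehicle replicate 1 or 2, 0 lower without a variance trend). RMI2, of the complex that resolves crossed DNA strands, had 8364 and 9664 in decitabine, against 4821 and 6198 in vehicle (log2 fold change 0.72 ± 0.11 SE, limma adjusted p 2.94e-05, and 0.0858 without a variance trend), and its arms did not overlap. The list of checkpoint, base excision and mismatch repair genes had 8 higher and 7 lower of 61 (1 or 0 higher without decitabine replicate 1 or 2, 3 higher without vehicle replicate 1 or 2, 0 higher without a variance trend, 3 lower without decitabine replicate 1 or 2, 1 lower without a variance trend), shares of 13.1% and 11.5% against the 15.4% and 12.3% of all genes.

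Histone genes that were called mostly fell. Of 73 tested 24 were lower, 13 of them by 2-fold or more, and 3 were higher (median log2 fold change −0.48, 1 higher without decitabine replicate 2, 15 lower without decitabine replicate 1). HIST1H2AC, an H2A gene, had 721 and 687 in decitabine, against 2377 and 2022 in vehicle (log2 fold change −1.64 ± 0.12 SE, limma adjusted p 4.77e-11). The linker histone gene HIST1H1C had 433 and 450.2 in decitabine, against 1264 and 1337 in vehicle (log2 fold change −1.56 ± 0.12 SE), and H1F0, the linker histone of resting cells, had 4824 and 4839 in decitabine, against 8537 and 9051 in vehicle. H2AFJ, an H2A variant, had 1222 and 1029 in decitabine, against 577 and 557 in vehicle and was higher. Clustered histone genes are near-identical copies, so reads may be split among them, and their mRNAs mostly lack poly(A) tails, so their level depends on the library preparation, which the labels do not describe. The variants H3F3B and H2AFZ, which are made outside S phase too, had 58924 and 54991 in decitabine, against 63122 and 58629.6 in vehicle and 23272 and 21153 in decitabine, against 22144 and 20742 in vehicle and were not called.

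Of 58 lysosome and autophagy genes 21 were higher and 2 lower (median log2 fold change 0.13, 10 higher without decitabine replicate 1, 4 higher without a variance trend). MAP1LC3A, a coat protein of autophagosomes, had 4330.0 and 3628 in decitabine, against 1836 and 1857 in vehicle, 2.16-fold higher (limma adjusted p 1.39e-08), and its relative GABARAPL1 had 5664 and 6151 in decitabine, against 3239.7 and 3539 in vehicle. OPTN, a receptor for cargo of autophagosomes, had 10559.9 and 10733 in decitabine, against 6113 and 6298 in vehicle. FTL, the ferritin light chain, which stores iron and is one of the largest gains in level, had 44839 and 39648 in decitabine, against 24687 and 23358 in vehicle. All 4 show arms that stand apart.

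The falls of single genes were fewer and shallower than the rises. AFM, the vitamin E-binding afamin of liver, had 105 and 85 in decitabine, against 376 and 440.3 in vehicle, the steepest fall among protein-coding genes named by rank (log2 fold change −2.10 ± 0.19 SE, limma adjusted p 4.94e-09). MATK, a kinase that restrains SRC, had 488 and 379 in decitabine, against 1562 and 1525 in vehicle (−1.84 ± 0.13 SE). SLC38A5, a glutamine transporter, had 159 and 126 in decitabine, against 604 and 456 in vehicle (−1.88 ± 0.18 SE). In each of these 3 genes the lowest vehicle value is more than 2 times the highest decitabine value. CD82, a tetraspanin, had 1897 and 1719.7 in decitabine, against 5592 and 5134 in vehicle, TMEM184A, a membrane protein, had 2038 and 1856 in decitabine, against 5584 and 6025 in vehicle, and ADAMTS14, a procollagen peptidase, had 522 and 531 in decitabine, against 1421 and 1756 in vehicle. KCTD12, an auxiliary subunit of GABA-B receptors, had 16927 and 19111 in decitabine, against 44138 and 37568 in vehicle and was among the 3 largest losses in mean normalized count (log2 fold change −1.18 ± 0.12 SE). The largest loss was that of KIF1A, the axonal motor of synaptic vesicle precursors, with 71704 and 77966 in decitabine, against 123330.0 and 101399 in vehicle (limma adjusted p 0.0042), but its adjusted p was 0.09 without a variance trend and 0.171 and 0.0859 without decitabine replicates 1 and 2. MCIDAS, which commits cells to many cilia, had 66 and 62.8 in decitabine, against 189 and 173 in vehicle, while FOXJ1 in the same pathway rose.

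Of 3549 long noncoding RNAs 439 were higher and 345 lower, 12.4% and 9.72%, both under the 15.4% and 12.3% of all genes. Intergenic RNAs named LINC were higher in 108 and lower in 49 of 419 cases, 43 of which were under 10 in both vehicle libraries (65 or 64 higher without decitabine replicate 1 or 2, 20 or 17 lower without decitabine replicate 1 or 2). Antisense RNAs named by their partner had 62 higher and 50 lower members of 546 (25 or 27 higher without decitabine replicate 1 or 2, 22 or 14 lower without decitabine replicate 1 or 2). The shares higher and lower were 25.8% and 11.7% for LINC genes and 11.4% and 9.16% for antisense RNAs. Of the antisense RNAs 12 were under 10 in both vehicle libraries, 11 of them among the rises. LINC01615 had 182 and 159 in decitabine, against 0 and 4.11 in vehicle, and LINC01783 had 164 and 148 in decitabine, against 1.0 and 7.18 in vehicle. Both were at a few counts in vehicle. LINC02499 had 23 and 24.2 in decitabine, against 126 and 124 in vehicle, the steepest fall of the noncoding genes named by rank (log2 fold change −2.36 ± 0.29 SE, limma adjusted p 7.72e-07). Where a noncoding gene overlaps another gene its reads cannot be told from that gene's without strand.

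Called genes stood in runs along chromosomes. In a run every tested gene between the first and the last was called in the same direction, and coordinates are of the GENCODE annotation of GRCh38. The 8 genes from S100A4 to S100A1 on chromosome 1 (chr1:153543613-153634340) were all higher, though S100A1 had a limma adjusted p of 0.00273 that came to 0.12 and 0.0527 without decitabine replicates 1 and 2. On the X chromosome 8 BEX and TCEAL genes, small signalling and transcription adaptors of neurons (chrX:103062651-103378077), were all higher. TCEAL5 had 2704 and 2278 in decitabine, against 895 and 946 in vehicle (2.71-fold), and BEX4 had 7704 and 7269 in decitabine, against 4949 and 5196 in vehicle (limma adjusted p 9.84e-05, and 0.0546 without a variance trend). The 6 genes from HOXD12 to HOXD8 (chr2:176099730-176137098) were higher, while HOXD3 and HOXD13 beside them were not called, at 163 and 147 with decitabine and 169.5 and 158 with vehicle and at 1838 and 2273 with decitabine and 1781 and 1787 with vehicle. In the other direction, 6 neighbours on chromosome 4 (chr4:73431138-74303099), among them AFP, AFM, LINC02499, CXCL8 and RASSF6, a RAS-association protein with 5472 and 5819.9 in decitabine, against 8733 and 10174 in vehicle, were all lower. Neighbours can overlap and share reads, and no test of the runs was made. Over the chromosomes with at least 100 tested genes the share of higher genes was lowest on chromosome 4 (10%) and highest on the X chromosome (136 of 715 genes, 19%).

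**Figure D5:**
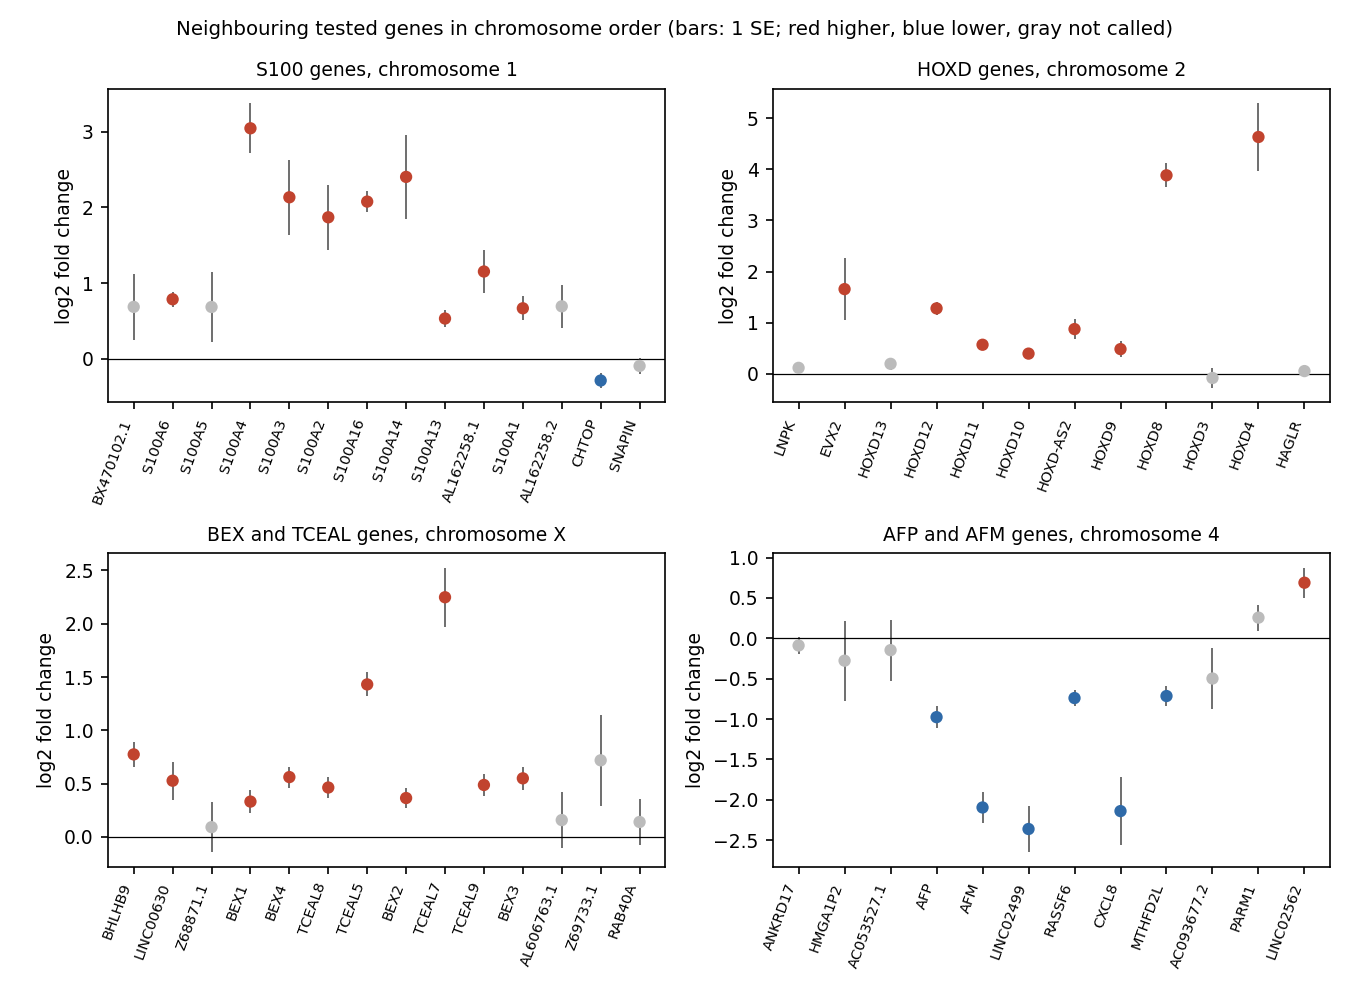
Log2 fold change (decitabine over vehicle, bars 1 SE) of tested genes in chromosome order around 4 runs, with 3 flanking genes on each side; red genes are called higher, blue lower and gray not called. S100, HOXD and BEX or TCEAL genes form unbroken red stretches and the 6 genes from AFP to MTHFD2L a blue one.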

How the data were processed

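H146 gave 2 decitabine and 2 vehicle libraries, which a vendor sequenced. The deposited values are normalized counts per gene, a depth-scaled signal. Per the submitters' processing notes, reads were handled with Trimmomatic (0.36) and STAR (2.5.2b) and counted with featureCounts from Subread (1.5.2), and GRCh38 and DESeq2 are named too. The kit is not stated, nor is whether it keeps strand. The deposited table also holds the authors' log2 fold change and p-values, which were not used, since that fold change is negative where decitabine is higher.

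Dividing each column by the value of 1 read (1.00 and 0.966 in decitabine, 1.00 and 1.03 in vehicle) gave whole reads for 100% of values, which tests little in the columns where 1 read is worth 1.00. Genes with a value of at least 10 in at least 2 libraries were tested with limma 3.58.1 (R 4.3.3) on log2(value + 1) with a variance trend and Benjamini-Hochberg adjustment over 20783 genes. A gene is called at an adjusted p under 0.05. All p-values are two-sided. Log2 fold changes are on that scale, which understates changes of low genes, and folds without a log are ratios of mean normalized counts. Against a vehicle arm with 0 reads a floor of 3 reads was used. Gene types and positions came from GENCODE 29 by gene ID (20757 of 20863 matched). Blank symbols (73) and symbols turned into dates (24) stayed in the tests. The code was tested on simulated data.

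The gene lists and the rule for named genes were chosen with earlier results of these data known. Named were the steepest calls with a mean of at least 50, the largest gains and losses in level, up to 3 steepest calls each way per list, and a set of markers; some of these are not reported here. These genes were chosen after their values were seen: CDH5, DCN, MUC13, PRSS1, VIL1, ACTA1, MYOD1, KRT10, KRT13, KRT19, GNAT1, HPX, PCDHA6, PCDHGC4, S100A6, CLDN19, TUBB2A, ZYX, HOXA10, OTX2, SIX6, AVPR1A, CCKBR, DRD2, CHRNE, CXCL8, NOP14, SNHG3, CDC25C, H1F0, H2AFZ, H3F3B, OPTN, BEX4, HOXD13, HOXD3, S100A1, TCEAL5, KLK15, LGALS3, JUN and RPL10L. Same-numbered libraries did not deviate together (correlation −0.05 over 15815 genes), so no pairing was used. Alternatives were other pseudocounts, filters, scalings and tests (edgeR 4.0.16 and DESeq2 1.42.0 on the reads), a replicate block, and each library left out.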

Additional observations from a re-analysis of the deposited data

How the results depend on the processing

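Among the named genes, 5 changed sign, and none of the 5 was called: without decitabine replicates 1 and 2 the log2 fold change was −0.14 and 0.20 for MT-ATP6, 0.26 and −0.13 for MKI67, −0.67 and 0.41 for DCN and −0.019 and 0.12 for H2AFZ. KRT10, also without a call, had −0.30 and 0.22 without vehicle replicates 1 and 2. Without a variance trend 1581 genes were higher and 583 lower, of which 201 were lower by 2-fold or more, and the cause was not tested. With a filter of 50 the counts at 2-fold or more were 866 and 186, fewer genes being tested, and DESeq2 gave 193 lower by 2-fold or more. Leaving out 1 library gave 1534 to 3054 higher, 987 to 2498 lower, 952 to 1463 higher by 2-fold or more and 178 to 483 lower by as much; all 4 were smallest without a decitabine library, and the highest count of 2-fold falls came without vehicle replicate 1. The fit with the replicate number as a block, which the check of pairing does not ask for, gave 2936 higher and 2256 lower. The other settings kept all 4 counts within 1.5 times, among them edgeR with 3226 higher and 2857 lower. In all, 1222 genes were called the same way in every setting, 866 higher and 356 lower. With 2 libraries an arm, genes at a few reads have wide counting intervals.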

Other observations

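Secreted protease inhibitors and kallikreins were higher in 11 of 28 tested cases and lower in 0 (4 or 7 higher without decitabine replicate 1 or 2), with 2 of them under 10 in both vehicle libraries. KLK1, tissue kallikrein, had 176 and 161 in decitabine, against 9.03 and 9.24 in vehicle, 18.5-fold higher (limma adjusted p 5.09e-10). KLK15, a related protease, had 21 and 30.9 in decitabine, against 0 and 0 in vehicle, at least 17.1-fold higher against 3 reads over the vehicle arm. Of 46 cytochrome P450 and aldehyde dehydrogenase genes 12 were higher and 1 lower (5 or 7 higher without decitabine replicate 1 or 2). Of these 46 genes 3 were under 10 in both vehicle libraries, and all 3 were among the rises. CYP27A1, the mitochondrial sterol hydroxylase, had 306 and 307 in decitabine, against 44.1 and 70.8 in vehicle, 5.33-fold higher (limma adjusted p 1.09e-08). Galectin genes were on a list with mucins and sialyltransferases, of which 19 of 66 were higher and 8 lower (2 or 4 lower without decitabine replicate 1 or 2, 5 lower without vehicle replicate 1). On that list 5 were under 10 in both vehicle libraries, 4 of them among the rises. LGALS3, a galectin of epithelia and macrophages, had 360.0 and 364 in decitabine, against 112 and 122 in vehicle. In all 4 named genes both decitabine values exceed both vehicle values.

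Immediate early genes, which answer signals within minutes, were higher in 14 of 34 cases and lower in 3 (8 or 5 higher without decitabine replicate 1 or 2, 1 lower without a variance trend). EGR4, a neuronal member of its family, had 215 and 216 in decitabine, against 68.2 and 64.7 in vehicle (log2 fold change 1.68 ± 0.22 SE, limma adjusted p 1.6e-06). JUN, a subunit of AP-1, had 21617 and 19561 in decitabine, against 13457 and 13189 in vehicle (log2 fold change 0.63 ± 0.11 SE), while DUSP2, a phosphatase of MAP kinases, had 615 and 565 in decitabine, against 1026 and 1028 in vehicle (log2 fold change −0.80 ± 0.12 SE). Genes of motile cilia went both ways, 9 higher and 2 lower of 37 (5 or 4 higher without decitabine replicate 1 or 2). RFX2, a factor of ciliated cells, had 426 and 379 in decitabine, against 153 and 144 in vehicle (2.71-fold), and RSPH4A, of the radial spoke, had 236 and 247 in decitabine, against 473 and 502 in vehicle (log2 fold change −1.01 ± 0.15 SE). Cholesterol synthesis genes had 3 higher and 3 lower of 36 (1 higher without decitabine replicate 1, 1 higher without a variance trend, 1 lower without decitabine replicate 1, 6 lower without vehicle replicate 2, 0 lower without a variance trend), and kinesin and dynein genes 5 and 4 of 53 (3 or 1 higher without decitabine replicate 1 or 2, 3 or 2 higher without vehicle replicate 1 or 2, 0 higher without a variance trend, 0 lower without decitabine replicate 1 or 2, 2 lower without vehicle replicate 2, 0 lower without a variance trend). These are 8.33% in each direction for the cholesterol list and 9.43% and 7.55% for kinesins and dyneins, against 15.4% higher and 12.3% lower over all genes.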
